A study of Mus musculus with 23 samples.

Results

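10 adhesion molecules of the myelinated nerve fibre were described across the 7 groups of sciatic nerve (SN) libraries: Nfasc and Cntn1 of the paranodal junction, Gldn and Nrcam of the nodal gap, Cadm1, Cadm2, Cadm3 and Cadm4 of the internode, and Cntn2 and Cntnap2 of the juxtaparanode. They were chosen by name, with earlier results of these data known. All 10 were found among the 43068 genes of the crush experiment and among the 22880 genes of the mutant experiment.

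Along a myelinated axon, Schwann cells (SCs) and the axon hold each other by pairs of cell surface proteins, and each zone has its own pairs. At the paranode, the glial form of neurofascin (NF155) binds contactin 1 and Caspr of the axon, and at the node the axonal form (NF186) and NrCAM are held by gliomedin that SCs secrete. Along the internode, Cadm4 (Necl4) of the SC binds Cadm3 (Necl1) of the axon, and beside the paranode TAG-1 (Cntn2) and Caspr2 (Cntnap2) keep potassium channels in place. Nerve RNA comes mainly from SCs and other resident cells, because the cell bodies of the axons lie outside the nerve.

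In the crush experiment, wild-type C57BL/6J male mice of 2 months had 1 SN crushed, and the segment distal of the injury was taken 3 days post crush (dpc) (crushed, n = 4), together with the uninjured opposite nerve (contralateral, n = 4) and nerves labelled uncrushed surgery control (uncrushed, n = 3). In the mutant experiment, all mice carried Dicer1 flox/flox or Dgcr8 flox/flox alleles on a C57bl6 background and all received tamoxifen as young adults of either sex, 3 months before the nerves were taken. Mutants (Dicer iKO and Dgcr8 iKO, n = 3 each) carried the P0-CreERT2 transgene as -/+ and their controls (n = 3 each) as -/-, so that the controls lacked Cre. The transgene is active in myelinating SCs. Dicer is an enzyme of microRNA biogenesis, and Dgcr8 is the RNA-binding partner of the enzyme Drosha in it. Because not every mutant showed nerve changes, the study worked with affected mutants only. The methods give the contralateral nerves as the opposite nerves of injured mice, but the labels do not tie the nerves of 1 mouse to each other, and p-values measure the spread between these libraries.

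Total counts per library ranged from 6617716 to 12806066 in the crush experiment and from 5594859 to 10143244 in the mutant experiment, where 3 counts correspond to 0.234 to 0.453 and to 0.296 to 0.536 CPM (counts scaled to the library total). The 7 markers of myelinating SCs were abundant in every intact nerve, and each of the lists of skeletal muscle, adipocyte and oligodendrocyte markers summed to at most 33.3 CPM in any library. At these low levels the lists differed between some groups, as given below. Gene totals of Dicer1 were 81.3 to 82.1 CPM in Dicer iKO and 87.4 to 90.5 CPM in its controls. Those of Dgcr8 were 39.4 to 54.0 CPM in Dgcr8 iKO and 35.4 to 41.8 CPM in its controls. These totals cover all transcripts of a gene and all cells of the nerve, and the deleted exons were not counted apart. They therefore do not check the genotype labels. By PCR, the study found Dicer and Dgcr8 mRNA reduced in the respective mutants. No 2 libraries of a group agreed within sampling noise.

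Nfasc has an axonal and a glial product, and the alternative exons that set them apart are shown because the counts of its transcripts are given separately. The gene (ENSMUSG00000026442) lies on chromosome 1 at 132564690 to 132741797 on the minus strand of GRCm38. In the GENCODE M21 annotation, transcripts Nfasc-201 and Nfasc-203 hold a pair of coding exons that Nfasc-202 skips, and Nfasc-202 holds, besides smaller differences, 3 neighbouring coding exons that the others skip. Of these, the exons of Nfasc-201 and Nfasc-203 belong to the NF155 type of the protein, and those of Nfasc-202 to the NF186 type with its mucin-like stretch. The exons are printed 5′ to 3′ on the strand of the gene, in capitals, between the 15 bases of the neighbouring exons in the spliced transcript in lower case.
Nfasc-201 and Nfasc-203 exon, chr1:132600099-132600214, 116 bases: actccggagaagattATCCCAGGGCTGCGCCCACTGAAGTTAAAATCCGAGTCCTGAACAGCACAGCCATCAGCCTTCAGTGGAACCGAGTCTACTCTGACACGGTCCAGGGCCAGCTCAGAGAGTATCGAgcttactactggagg
Nfasc-201 and Nfasc-203 exon, chr1:132597765-132597969, 205 bases: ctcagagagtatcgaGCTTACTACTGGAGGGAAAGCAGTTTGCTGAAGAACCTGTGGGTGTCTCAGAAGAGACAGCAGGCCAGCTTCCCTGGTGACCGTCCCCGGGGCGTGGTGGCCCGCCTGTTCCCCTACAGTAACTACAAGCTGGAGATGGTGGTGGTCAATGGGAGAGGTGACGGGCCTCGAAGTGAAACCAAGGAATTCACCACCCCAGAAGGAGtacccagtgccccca
Nfasc-202 junction that skips both: actccggagaagatttacccagtgccccca
Nfasc-202 exon, chr1:132588074-132588310, 237 bases: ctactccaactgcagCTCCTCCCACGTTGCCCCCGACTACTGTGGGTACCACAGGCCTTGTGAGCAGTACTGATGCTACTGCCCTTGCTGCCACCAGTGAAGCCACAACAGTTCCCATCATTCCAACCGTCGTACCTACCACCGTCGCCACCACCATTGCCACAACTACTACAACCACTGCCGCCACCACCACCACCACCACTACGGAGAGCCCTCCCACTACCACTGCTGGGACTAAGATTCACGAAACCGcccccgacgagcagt
Nfasc-202 exon, chr1:132584364-132584480, 117 bases: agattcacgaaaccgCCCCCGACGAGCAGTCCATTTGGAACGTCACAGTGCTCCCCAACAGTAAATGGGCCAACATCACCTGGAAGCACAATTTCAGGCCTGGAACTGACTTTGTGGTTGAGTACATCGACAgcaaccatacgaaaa
Nfasc-202 exon, chr1:132582995-132583147, 153 bases: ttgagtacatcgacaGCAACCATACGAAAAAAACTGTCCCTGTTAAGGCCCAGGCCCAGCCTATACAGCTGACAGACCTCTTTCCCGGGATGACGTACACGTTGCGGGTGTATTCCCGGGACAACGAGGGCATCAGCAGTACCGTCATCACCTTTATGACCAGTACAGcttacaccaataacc
Nfasc-201 and Nfasc-203 junction that skips the 3 exons: ctactccaactgcagcttacaccaataacc

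To see how the molecules that hold axon and SC together stand after axons are cut off from their cell bodies, crushed nerves were compared with uncrushed and with contralateral nerves. Most of the group was lower at 3 dpc, with Cadm2 at 7.90-fold, Cntn1 at 5.08-fold, Cadm3 at 4.45-fold and Cadm4 at 3.65-fold lower than in uncrushed nerves, whereas Nrcam was 6.30-fold and Cadm1 2.67-fold higher. A gene was called where the fold change was at least 2 and the Benjamini-Hochberg adjusted p of edgeR's quasi-likelihood test over all genes was at most 0.05. By this rule 2 of the 10 members were higher and 7 lower in crushed than in uncrushed nerves, whereas 15.3% of all 17433 genes tested were higher and 21.1% lower. Against contralateral nerves 2 members were higher and 6 lower, with 14.6% of 16667 genes higher and 13.6% lower. Both comparisons share the crushed libraries and so are not independent of each other.

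The same crushed libraries differed in their cell markers. The summed level of 7 myelinating SC markers was 40130 to 43240 CPM in uncrushed and 1825 to 2764 CPM in crushed nerves, with 6 of the 7 called lower. The SC lineage list (Sox10, S100b and Erbb3) summed to 735.2 to 880.9 and 233.2 to 298.6 CPM, with 1 of 3 called lower. All 6 macrophage markers were called higher (103.3 to 134.8 against 617.6 to 1513 CPM in sum) and 4 of 6 markers of non-myelinating or repair SCs (127.6 to 134.3 against 1469 to 2096 CPM). Of 8 neuronal markers tested, 5 were lower and Tubb3 was higher, while the 9 listed summed to 97.83 to 127.0 CPM in uncrushed and 97.37 to 123.0 CPM in crushed nerves. None of 4 fibroblast markers and 1 of 4 endothelial markers (higher) was called. At low levels, the 1 adipocyte marker tested was higher and the 1 oligodendrocyte marker tested was lower. In whole nerve, fewer cells of a type and less RNA per cell cannot be told apart.

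Nfasc, whose protein is part of both the paranodal junction and the node, was among the more abundant members of the intact nerve. It stood at 349.3, 355.0 and 318.0 CPM in the 3 uncrushed nerves, at 337.8, 464.6, 443.0 and 364.4 CPM in the contralateral nerves, and at 184.6, 131.6, 140.3 and 125.6 CPM in the crushed nerves. Every crushed nerve was below every intact one. Nfasc fell by 1.12 on the log2 scale (SE 0.14, edgeR adjusted p = 1.45e-05) against uncrushed and by 1.45 (SE 0.14, adjusted p = 3.03e-07) against contralateral nerves. Without a filter on low counts the first of these was -0.90 and no longer past 2-fold, in a fit that moved the median of all genes to -0.39.

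Cntn1 (ENSMUSG00000055022, chromosome 15, 92051165 to 92341967, plus strand), which encodes the axonal contactin of the paranode, was less abundant. Uncrushed nerves held 20.1, 21.6 and 26.4 CPM, contralateral nerves 20.8, 17.8, 12.6 and 16.9 CPM, and crushed nerves 4.65, 4.16, 2.93 and 4.71 CPM. The crushed nerves again lay below all others, by 2.34 (SE 0.17, edgeR adjusted p = 1.77e-07) against uncrushed and 2.03 (SE 0.18, adjusted p = 1.86e-07) against contralateral nerves on the log2 scale.

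Most of the Cntn1 counts left in crushed nerves fell to a transcript that does not encode the protein. Transcripts typed as protein coding held 80.2 to 120.4 of 155.0 to 224.2 Cntn1 counts in uncrushed nerves (51.8% to 63.8%) and 4.3 to 8.0 of 31.6 to 57.9 counts in crushed nerves (11.2% to 16.0%), and the rest came from the retained-intron transcript Cntn1-203. In contralateral nerves the coding share was 54.0% to 73.7%. With coding transcripts only, an alternative chosen after seeing the data, the log2 fold change of Cntn1 was -4.49 (edgeR adjusted p = 1.25e-08) against uncrushed and -4.27 against contralateral nerves. In the mutant experiment, which used another library kit, coding transcripts held 88.4% to 100% of Cntn1 counts in every library.

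The members of the nodal gap differed from each other. Gldn (ENSMUSG00000046167, chromosome 9, 54286486 to 54341786, plus strand), the gene of gliomedin, which SC microvilli secrete and which gathers NF186 and NrCAM at the forming node, was at 237.2, 266.0 and 231.3 CPM in uncrushed nerves. It was at 255.0, 345.6, 306.1 and 250.9 CPM in contralateral and at 307.5, 266.1, 277.4 and 220.5 CPM in crushed nerves. These groups overlapped, and Gldn was not called in either comparison: the log2 fold change was 0.23 (95% interval -0.03 to 0.49, edgeR adjusted p = 0.103) against uncrushed and -0.10 (-0.36 to 0.16, adjusted p = 0.474) against contralateral nerves. A long antisense gene, Gldnos, overlaps Gldn.

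Nrcam (ENSMUSG00000020598, chromosome 12, 44328885 to 44601964, plus strand) encodes a relative of neurofascin that is found at nodes both on the axon and, shed, in the gap. It showed the largest rise among the members, from 62.3, 71.7 and 70.2 CPM in uncrushed and 81.6, 93.9, 78.7 and 75.1 CPM in contralateral nerves to 457.3, 385.2, 405.6 and 345.7 CPM in crushed nerves. The crushed nerves were well apart from both others. The log2 fold change was 2.65 (SE 0.12, edgeR adjusted p = 3.31e-09) against uncrushed and 2.29 (SE 0.11, adjusted p = 1.57e-10) against contralateral nerves. Of the 2 Nrcam transcripts listed in the deposited table, Nrcam-202 held 97.2% of the gene's counts in the crush experiment and rose by itself with a log2 fold change of 2.55.

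**Figure D1:**
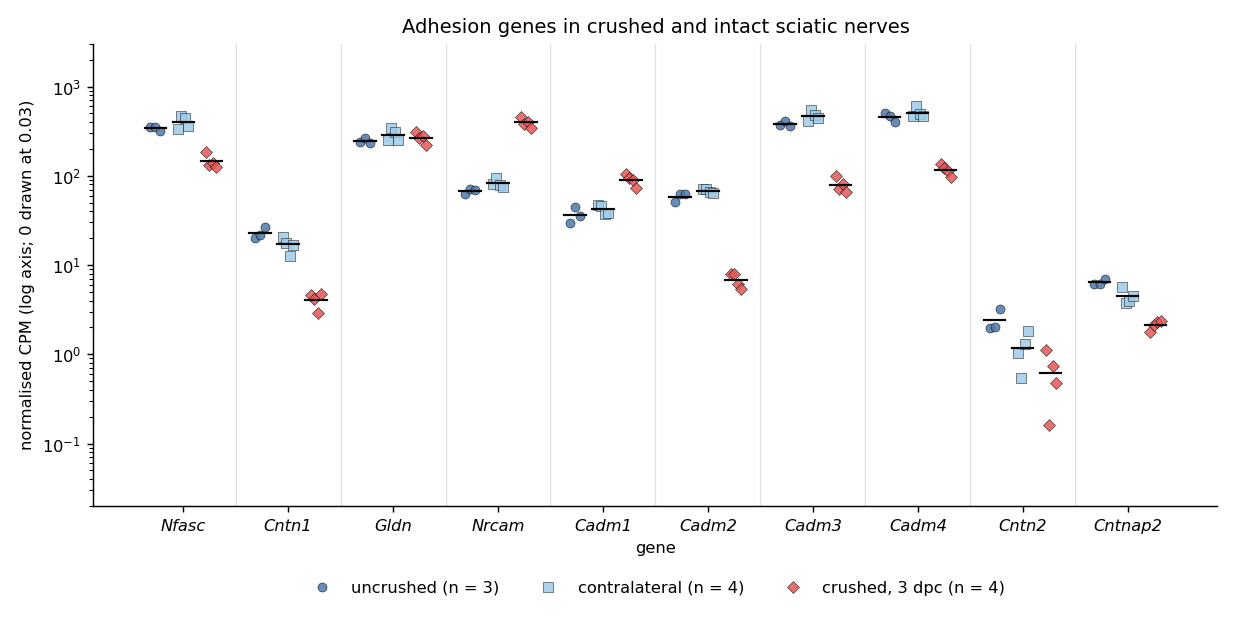
Normalised CPM (log axis) of the 10 genes in each library of the crush experiment, 1 point per nerve and a line at the group mean, for uncrushed (n = 3), contralateral (n = 4) and crushed (n = 4) nerves. Nrcam and Cadm1 are higher in all crushed nerves, Gldn overlaps between groups, and Cadm2, Cadm3, Cadm4, Cntn1 and Nfasc are lower in all crushed nerves.

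The nectin-like molecules of the internode did not move together. Cadm4 (ENSMUSG00000054793, chromosome 7, 24482023 to 24504539, plus strand), the SC partner in the internodal pair, was the most abundant member per length in intact nerves. It was at 501.7, 466.8 and 403.5 CPM in uncrushed nerves and 462.4, 599.6, 495.7 and 472.4 CPM in contralateral nerves, against 135.1, 121.2, 114.0 and 97.3 CPM in crushed nerves. Each crushed nerve held less than any intact one. Cadm4 fell by 1.87 (SE 0.13, edgeR adjusted p = 9.15e-08) and by 2.11 (SE 0.12, adjusted p = 9.79e-10) on the log2 scale against uncrushed and contralateral nerves.

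Cadm3 (ENSMUSG00000005338, chromosome 1, 173333258 to 173367695, minus strand), known as the axonal partner, was nonetheless abundant in nerve RNA. Its 367.4, 409.7 and 362.3 CPM in uncrushed and 410.8, 542.5, 479.2 and 446.1 CPM in contralateral nerves were followed by 98.4, 72.1, 81.8 and 65.5 CPM in crushed nerves. The log2 fold change was -2.15 (SE 0.13, edgeR adjusted p = 4.38e-08) against uncrushed and -2.55 (SE 0.13, adjusted p = 4.41e-10) against contralateral nerves. Ackr1 on the same strand and Aim2 on the opposite strand overlap the locus.

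Cadm2 (ENSMUSG00000064115, chromosome 16, 66655421 to 67620908, minus strand), a further nectin-like molecule of axons and SCs, had the largest decrease of the 10 genes. Uncrushed nerves held 50.9, 62.3 and 62.0 CPM, contralateral nerves 71.3, 71.2, 65.9 and 64.5 CPM, and crushed nerves 7.86, 7.90, 6.14 and 5.37 CPM. The gap between the groups was far wider than the spread within them, with log2 fold changes of -2.98 (SE 0.13, edgeR adjusted p = 2.70e-09) against uncrushed and -3.30 (SE 0.11, adjusted p = 8.00e-12) against contralateral nerves.

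Cadm1 (ENSMUSG00000032076, chromosome 9, 47530173 to 47857637, plus strand), which is also expressed by many cells outside the nervous system, went the other way. It was at 29.6, 44.3 and 35.8 CPM in uncrushed, 47.5, 45.6, 37.0 and 38.8 CPM in contralateral and 104.6, 94.1, 90.6 and 73.4 CPM in crushed nerves. All crushed nerves were above all intact ones, with log2 fold changes of 1.42 (SE 0.15, edgeR adjusted p = 4.23e-06) and 1.11 (SE 0.11, adjusted p = 6.47e-07). Macrophage markers were higher in the same nerves, as given above, and their part in the level of Cadm1 was not tested.

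The juxtaparanodal genes were the rarest members. Cntnap2 (ENSMUSG00000039419, chromosome 6, 45059357 to 47304213, plus strand), the gene of Caspr2, was at 6.11, 6.13 and 6.99 CPM in uncrushed nerves, 5.66, 3.77, 3.91 and 4.51 CPM in contralateral nerves and 1.77, 2.12, 2.29 and 2.36 CPM (22 to 26 counts) in crushed nerves. The groups did not overlap, and Cntnap2 fell by 1.48 (SE 0.20, edgeR adjusted p = 3.44e-05) and by 1.05 (SE 0.20, adjusted p = 0.000342) on the log2 scale. The second value lies near 2-fold: it was -0.91 without contralateral replicate 1, -0.999 without crushed replicate 1 and -0.88 without a filter, each below the threshold. The locus spans 28 other annotated genes.

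Cntn2 (ENSMUSG00000053024, chromosome 1, 132509427 to 132543256, minus strand), the gene of TAG-1, had only 16 to 22 counts in uncrushed, 7 to 18 in contralateral and 2 to 14 in crushed nerves, or 1.98 to 3.24, 0.550 to 1.85 and 0.163 to 1.12 CPM. Crushed and contralateral nerves overlapped. It was called lower against uncrushed nerves (log2 fold change -1.78, SE 0.46, edgeR adjusted p = 0.00484) but not against contralateral nerves (-0.85, SE 0.48, adjusted p = 0.130), where leaving out crushed replicate 1 gave -1.37 and a call. With coding transcripts only, the first value was -1.31 with adjusted p = 0.157.

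Contralateral and uncrushed nerves were compared to learn whether both serve as the same reference. Neither a member nor any of 17722 genes was called in edgeR's quasi-likelihood test (0% higher and 0% lower), although 3165 genes had an unadjusted p under 0.05 and DESeq2 called 20 genes. Member log2 fold changes ran from -1.01 for Cntn2 (adjusted p = 0.229) and -0.52 for Cntnap2 (adjusted p = 0.209) to 0.30 for Cadm3 (adjusted p = 0.194). Before adjustment, 6 of the 10 members had p under 0.05. Of these, Cntn1, Cntn2 and Cntnap2 had negative and Nrcam, Cadm2 and Cadm3 positive log2 fold changes. The 95% interval ran from -0.74 to -0.07 for Cntn1 and from 0.07 to 0.48 for Nrcam.

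To see whether the same molecules differ when SCs lose microRNA biogenesis in an uncut nerve, mutants were compared with their own controls at 3 months post tamoxifen. In Dgcr8 iKO, Cntnap2 was 6.94-fold, Nfasc 2.97-fold, Cntn1 2.73-fold and Cadm3 2.45-fold lower than in controls, and Cadm1 was 2.03-fold higher. In Dicer iKO, only Cadm1 passed both thresholds, at 2.0-fold higher. Of the 10 genes, 9 had enough counts to be tested. In Dgcr8 iKO 1 of these was called higher and 4 lower, beside 13.4% and 6.99% of 13252 genes, and in Dicer iKO 1 was called higher and 0 lower, beside 7.37% and 1.64% of 13045 genes. In the latter 4 of the 9 had an unadjusted p under 0.05, as had 4736 of all 13045 genes, and DESeq2 called 0 of the 9, beside 1002 genes higher and 256 lower.

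Cell markers moved in these nerves as well. Myelinating SC markers summed to 42280 to 44970 CPM in Dgcr8 controls and 14270 to 27960 CPM in Dgcr8 iKO (3 of 7 called lower), and to 27090 to 45560 and 21610 to 26790 CPM in Dicer controls and Dicer iKO (0 of 7 called). The SC lineage list summed to 1285 to 1685 CPM in Dgcr8 controls and 846.2 to 1182 CPM in Dgcr8 iKO (1 of 3 called lower), and to 1272 to 1716 and 1078 to 1183 CPM in Dicer controls and Dicer iKO (0 of 3 called). Endothelial markers summed to 215.2 to 251.7 and 139.0 to 189.8 CPM in Dgcr8 controls and mutants (1 of 4 lower), and to 206.0 to 228.1 and 137.8 to 148.9 CPM in Dicer controls and mutants (0 of 4 called). Macrophage markers summed to 242.2 to 283.1 and 2370 to 5647 CPM in Dgcr8 controls and mutants (6 of 6 higher), and to 255.5 to 868.3 and 3581 to 6487 CPM in Dicer controls and mutants (5 of 6 higher). The 9 listed neuronal markers summed to 182.0 to 204.4 CPM in Dgcr8 controls and 144.5 to 192.7 CPM in Dgcr8 iKO, which overlap. In Dicer controls and Dicer iKO they summed to 168.6 to 184.8 and 91.23 to 129.8 CPM. Of 8 neuronal markers tested in Dgcr8 iKO, 7 were lower and Tubb3 was higher. Among those lower, Nefl, the light neurofilament, was at 25.4 to 31.1 CPM in controls and 2.48 to 4.43 CPM in mutants. In Dicer iKO 3 of 7 neuronal markers were lower and Tubb3 higher, and Nefl was at 16.1, 3.80 and 4.57 CPM against 21.7 to 27.6 CPM in controls. Fibroblast markers were called higher for 2 of 4 genes in either mutant. Adipocyte markers summed to 0.408 to 2.125 CPM in Dgcr8 controls and 14.98 to 33.28 CPM in Dgcr8 iKO, with the 1 gene tested called higher. In Dicer controls and Dicer iKO they summed to 2.586 to 30.67 and 17.42 to 24.09 CPM, with none called. The 1 skeletal muscle marker tested in Dicer iKO was lower.

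The 3 Dicer controls were also unlike each other. In replicates 1, 2 and 3, respectively, Nfasc was at 163.6, 229.5 and 437.2 CPM and Sox10, an SC transcription factor, at 173.1, 244.8 and 316.6 CPM, whereas in Dicer iKO Sox10 lay between 194.8 and 201.7 CPM. Their summed fibroblast markers ranged from 3780 to 11340 CPM. Without Dicer control replicate 3 the log2 fold changes in Dicer iKO were 0.52 for Gldn, 0.47 for Nrcam, -0.27 for Cadm2, -0.53 for Cadm3 and -0.74 for Cntnap2, none of them called.

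Nfasc in Dicer iKO was at 162.3, 117.3 and 139.1 CPM, each below the lowest of its controls, and the log2 fold change of -0.99 (SE 0.33, edgeR adjusted p = 0.0732) was not called. It was -1.26 with adjusted p = 0.0148, and called, without Dicer control replicate 1, and -0.49 with adjusted p = 0.0848 without Dicer control replicate 3. In Dgcr8 iKO it was at 138.9, 184.5 and 129.0 CPM against 427.5, 581.5 and 335.1 CPM in controls. All mutants were below all controls there, and Nfasc fell by 1.57 on the log2 scale (SE 0.21, edgeR adjusted p = 0.000162).

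Cntn1 was at 8.26, 11.9 and 5.72 CPM in Dgcr8 iKO against 29.0, 25.03 and 17.3 CPM in controls, a fall by 1.45 on the log2 scale (SE 0.27, edgeR adjusted p = 0.00119). In Dicer iKO it was at 15.3, 8.97 and 6.09 CPM and in its controls at 14.8, 20.9 and 21.6 CPM. Dicer iKO replicate 1 lay within the controls, and the log2 fold change of -0.91 (SE 0.33, adjusted p = 0.0865) was not called. Without that replicate it was -1.34 with adjusted p = 0.0196 and called. The same replicate had the highest Nefl level of the Dicer iKO nerves. Nefl is 1 of 7 neuronal markers tested there, of which 3 were lower and Tubb3 was higher. A link between Nefl and Cntn1 was not tested.

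Gldn was again not called. It was at 374.3, 355.9 and 300.9 CPM in Dgcr8 iKO and 241.7, 293.0 and 299.9 CPM in controls, with a log2 fold change of 0.30 (95% interval -0.02 to 0.63, edgeR adjusted p = 0.120), and at 227.4, 245.3 and 249.3 CPM in Dicer iKO against 134.2, 200.9 and 280.9 CPM in controls, with 0.23 (-0.32 to 0.78, adjusted p = 0.520). Every Dgcr8 iKO nerve was just above the highest control, and the Dicer groups overlapped.

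Nrcam, the member with the largest rise after crush, was at 218.7, 221.9 and 306.8 CPM in Dgcr8 iKO against 143.1, 121.9 and 157.4 CPM in controls. The groups were apart, and the log2 fold change of 0.82 (SE 0.17, edgeR adjusted p = 0.00222) passed the p threshold but not 2-fold. In Dicer iKO its 106.8, 107.1 and 113.9 CPM lay inside the control range of 67.5 to 145.2 CPM, with a log2 fold change of 0.11 (95% interval -0.46 to 0.69, adjusted p = 0.769).

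**Figure D2:**
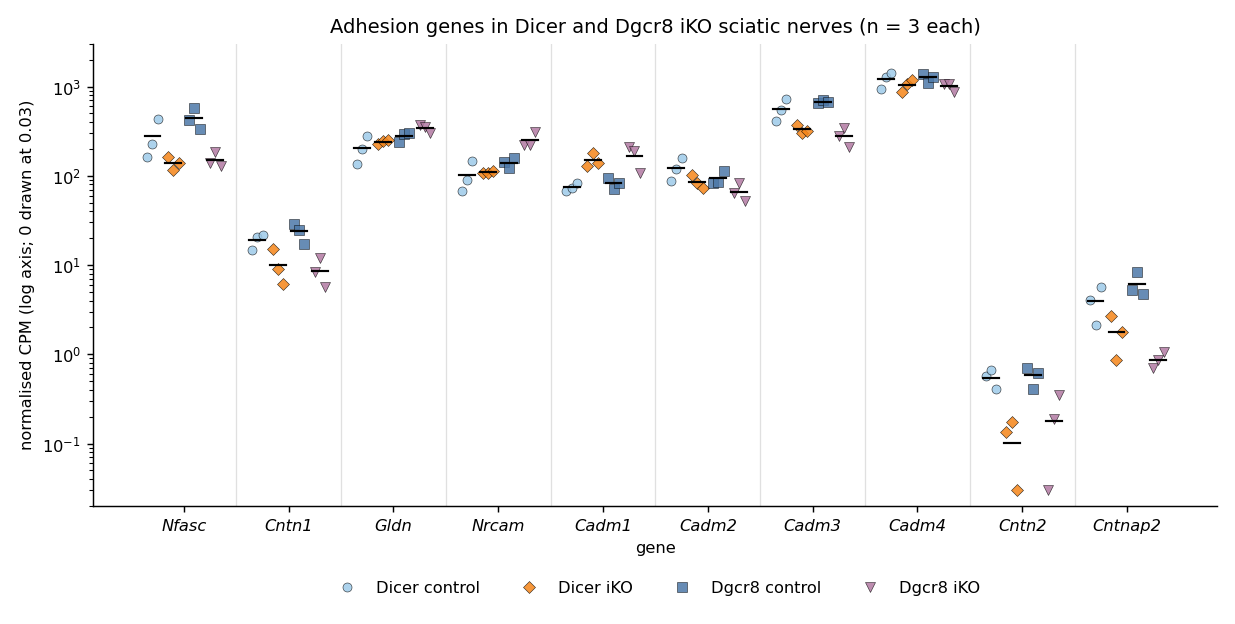
Normalised CPM (log axis) of the 10 genes in each library of the mutant experiment, 1 point per nerve and a line at the group mean, n = 3 for each of Dicer control, Dicer iKO, Dgcr8 control and Dgcr8 iKO. Cadm1 is higher in all mutants of both genotypes than in their controls, Nfasc and Cadm3 are lower, Dicer control values are spread widely, and Cntn2 lies near the level of 3 counts.

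Cadm1 was at 128.7, 180.6 and 137.5 CPM in Dicer iKO against 67.7, 73.4 and 82.2 CPM in controls, and at 208.3, 191.4 and 106.8 CPM in Dgcr8 iKO against 94.8, 71.6 and 82.6 CPM in controls. No mutant overlapped its controls. The log2 fold changes of 1.002 (SE 0.15, edgeR adjusted p = 0.00558) and 1.02 (SE 0.22, adjusted p = 0.00334) lie at the 2-fold threshold, so that Cadm1 was called in only 4 of 13 alternatives for Dicer iKO and 9 of 13 for Dgcr8 iKO, although the adjusted p stayed at or below 0.0359 and 0.0211 in all of them. Without Dicer iKO replicate 2 it was 0.85, without Dicer control replicates 1 and 2 it was 0.93 and 0.99, and without Dgcr8 iKO replicates 1 and 2 and Dgcr8 control replicate 2 it was 0.84, 0.93 and 0.92.

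Cadm3 was at 277.8, 344.5 and 208.4 CPM in Dgcr8 iKO against 646.2, 712.6 and 676.3 CPM in controls, and fell by 1.29 on the log2 scale (SE 0.19, edgeR adjusted p = 0.000246). In Dicer iKO it was at 372.4, 302.9 and 318.0 CPM against 411.5, 543.7 and 729.5 CPM in controls. Its log2 fold change of -0.76 (SE 0.21, adjusted p = 0.0373) passed the p threshold but not 2-fold, and adjusted p ran from 0.00353 to 0.149 over the alternatives.

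Cadm4, the SC partner of the internodal pair, was not called in either mutant. It was at 1061, 1079 and 877.8 CPM in Dgcr8 iKO against 1394, 1110 and 1295 CPM in controls, and 874.3, 1082 and 1191 CPM in Dicer iKO against 942.9, 1280 and 1406 CPM in controls. The log2 fold changes of -0.33 (95% interval -0.72 to 0.05, edgeR adjusted p = 0.140) and -0.20 (-0.64 to 0.24, adjusted p = 0.475) had intervals that leave out a 2-fold fall. Cadm2 was at 63.7, 84.0 and 51.6 CPM against 82.8, 84.5 and 113.9 CPM in Dgcr8 iKO and controls (log2 fold change -0.50, 95% interval -0.91 to -0.09, adjusted p = 0.0494) and at 101.2, 82.8 and 73.6 CPM against 87.9, 119.0 and 160.2 CPM in Dicer iKO and controls (-0.51, -1.02 to 0.00, adjusted p = 0.140). Neither value reached 2-fold.

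Cntnap2 had the largest difference of the members in Dgcr8 iKO, at 0.708, 0.858 and 1.05 CPM (6 to 9 counts) against 5.31, 8.44 and 4.77 CPM (45 to 62 counts) in controls, a fall by 2.79 on the log2 scale (SE 0.36, edgeR adjusted p = 0.000120). Of 8 neuronal markers tested in the same nerves, 7 were called lower and Tubb3 higher. Snap25, 1 of the 7, moved from 12.2 to 17.4 CPM to 1.77 to 3.50 CPM. The sum of the neuronal list overlapped between these groups, as given above. In Dicer iKO Cntnap2 was at 2.66, 0.863 and 1.80 CPM against 4.02, 2.12 and 5.68 CPM, and the log2 fold change of -1.11 (SE 0.50, adjusted p = 0.151) was not called. Cntn2 had at most 6 counts in any library of the mutant experiment (3 to 6 in controls of either kind, 0 to 3 in mutants), which is at or near the floor of 3 counts, and was not tested.

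Whether the effect of the mutation differed between Dgcr8 and Dicer was tested as an interaction over the 12 libraries. No member passed an adjusted p of 0.05, and over all genes 2 of 13552 did (0.0148%). By edgeR's quasi-likelihood test the largest difference among the members was that of Cntnap2 (-1.68 on the log2 scale, 95% interval -3.07 to -0.30, unadjusted p = 0.0210, adjusted p = 0.289), followed by Nrcam (0.71, 0.02 to 1.40, unadjusted p = 0.0446, adjusted p = 0.352). For Nfasc it was -0.58 (-1.51 to 0.35, adjusted p = 0.581) and for Cadm1, the member called in both mutants, 0.02 (-0.63 to 0.68).

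**Figure D3:**
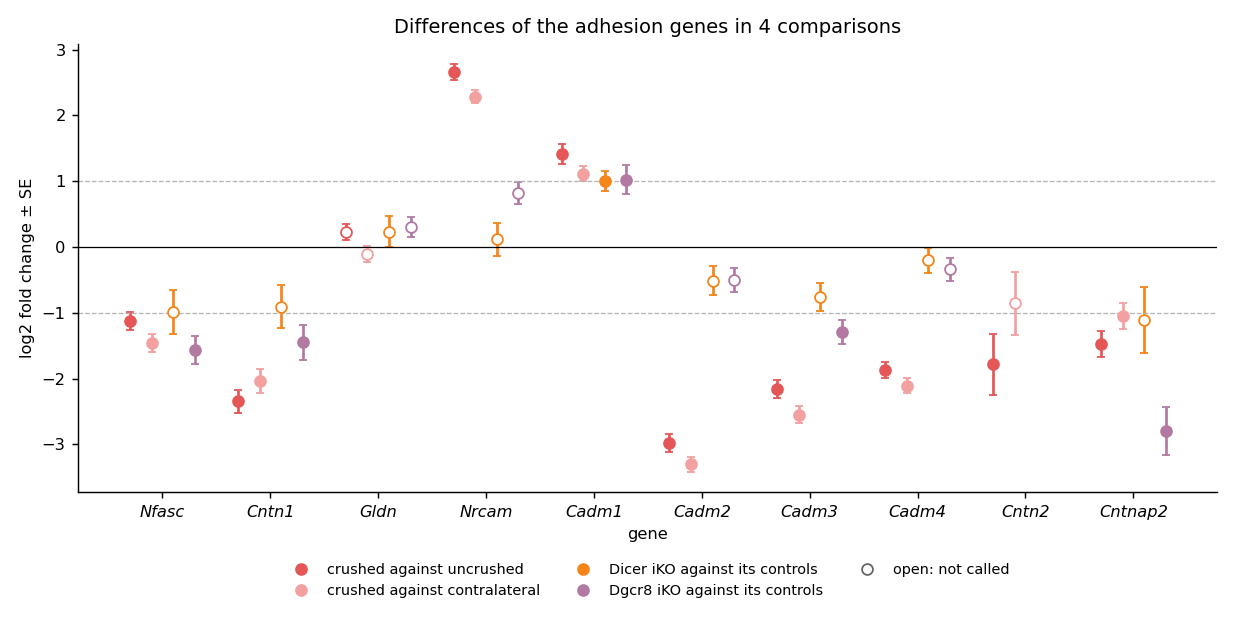
Log2 fold change ± SE (edgeR) of the 10 genes in crushed against uncrushed nerves, crushed against contralateral nerves, Dicer iKO against controls and Dgcr8 iKO against controls, with filled points called and dashed lines at 2-fold. Cadm2 and Cadm4 lie at -2.98 and -1.87 in crushed against uncrushed nerves but at -0.50 and -0.33 in Dgcr8 iKO, and Cntnap2 is lowest in Dgcr8 iKO at -2.79.

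Set side by side, the log2 fold changes of Cadm2 and Cadm4 were -2.98 and -1.87 in crushed against uncrushed nerves and -0.50 and -0.33 in Dgcr8 iKO. Those of Nfasc and Cntn1 were -1.12 and -2.34 after crush and -1.57 and -1.45 in Dgcr8 iKO, and that of Nrcam was 2.65 after crush and 0.82 in Dgcr8 iKO. These values come from separate experiments with different kits, and their differences were not tested.

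The transcripts of Nfasc were then taken apart. Of 10 listed in the crush experiment 8 had counts, and of 8 in the mutant experiment 7, but Nfasc-201, Nfasc-202 and Nfasc-203 held nearly all of them. Nfasc-202 took 53.1% ± 0.534 (SD, n = 3) of the gene's counts in uncrushed, 50.7% ± 1.25 (n = 4) in contralateral and 51.1% ± 3.25 (n = 4) in crushed nerves. Nfasc-201 took 18.5% ± 4.87, 21.96% ± 2.81 and 22.5% ± 3.53, and Nfasc-203 23.9% ± 3.41, 22.7% ± 1.88 and 20.8% ± 2.77. Between crushed and uncrushed means, the shares of Nfasc-201, Nfasc-202 and Nfasc-203 differed by 3.97, -2.05 and -3.09 percentage points. The groups overlapped for each (two-sided exact permutation p = 0.286, 0.514 and 0.286). This exact permutation test cannot go below p = 0.0571 with 4 against 3 nerves. The share of Nfasc-202 differed by -2.40 percentage points between contralateral and uncrushed means, without overlap and at that limit (two-sided exact permutation p = 0.0571).

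Nfasc-202 is the longest, with 9739 bases against 5072 for Nfasc-201 and 3903 for Nfasc-203, and 46.8% of it lies in a stretch of its last exon that the others lack. Reads in that stretch are assigned to it whichever of the exons printed above their molecule held, and the error of RSEM's assignment is not modelled in the tests. The share of counts is therefore not a share of molecules: on the TPM scale, which divides by length, Nfasc-202 made up 29.6% of the gene in uncrushed nerves and Nfasc-203 33.8%.

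In the mutant experiment, Nfasc-202 held 40.9% ± 0.374 of counts in Dicer controls, 47.9% ± 6.99 in Dicer iKO, 38.2% ± 1.57 in Dgcr8 controls and 43.1% ± 2.09 in Dgcr8 iKO (n = 3 each). Per library it was 37.3%, 37.3% and 40.0% in Dgcr8 controls and 44.3%, 44.3% and 40.7% in Dgcr8 iKO, so that every Dgcr8 mutant was above every control. On the TPM scale these groups overlapped, with 20.84% in the lowest mutant and 21.04% in the highest control (two-sided exact permutation p = 0.2). The share of Nfasc-203 in counts differed by -4.94 points between Dgcr8 iKO and its controls (p = 0.2, exact permutation test). Nfasc-201 held 33.3% ± 1.87 of counts in Dicer controls and 25.9% ± 3.23 in Dicer iKO, without overlap. With 3 against 3 nerves an exact permutation test cannot go below p = 0.1. In counts, Nfasc-202 in Dgcr8 iKO (4.86 percentage points) and Nfasc-201 in Dicer iKO (-7.37 percentage points) reached this limit. None of the 15 share tests (3 transcripts in 5 comparisons, two-sided exact permutation tests) passed 0.05, before or after adjustment. The smallest adjusted p of these exact permutation tests was 0.5. Before adjustment, only crushed against contralateral nerves, with 4 against 4, could have passed (exact permutation limit p = 0.0286). In the other comparisons the limit lies above 0.05, and after adjustment over the 15 tests none could have passed. The lack of a pass therefore does not show equal shares in any comparison.

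**Figure D4:**
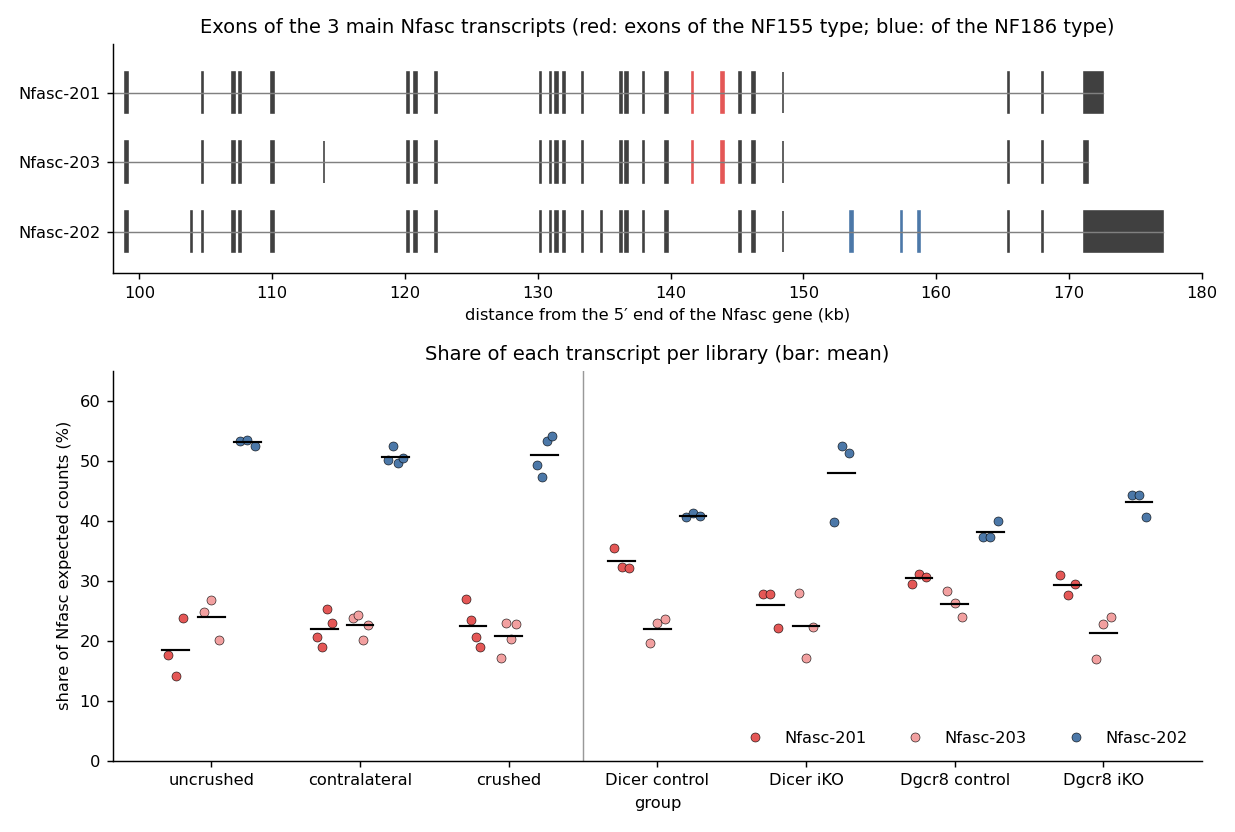
Above, exons of the 3 main Nfasc transcripts against distance from the 5′ end of the gene (kb), drawn from the first exon of these transcripts on, with the exons of the NF155 type in red and those of the NF186 type in blue; below, the share (%) of the gene's expected counts in each transcript, 1 point per library and a bar at the group mean. Nfasc-202 lies at 47.4% to 54.1% in crushed, 49.6% to 52.5% in contralateral and 52.5% to 53.55% in uncrushed nerves.

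As levels, all 3 Nfasc transcripts were lower where the gene was. Against uncrushed nerves the log2 fold change of Nfasc-202 was -1.25 (SE 0.14, edgeR adjusted p over all transcripts = 0.000635), that of Nfasc-203 -1.43 (SE 0.15, adjusted p = 0.000350) and that of Nfasc-201 -0.86 (SE 0.26, adjusted p = 0.0387, short of 2-fold). Against contralateral nerves they were -1.49, -1.64 and -1.44, each called. In Dgcr8 iKO they were -1.34 (adjusted p = 0.0159), -1.83 (adjusted p = 0.0135) and -1.59 (adjusted p = 0.00950), each called. Without Dgcr8 iKO replicate 1 none of them was called (adjusted p = 0.0733, 0.0544 and 0.0506), and without Dgcr8 control replicate 1 (0.0555 and 0.0532) or Dgcr8 iKO replicate 3 (0.0538 and 0.0552) Nfasc-202 and Nfasc-203 were not. In Dicer iKO they were -0.78, -0.96 and -1.33, none called.

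Over all members' transcripts, 4 of 31 were called higher and 14 lower in crushed against uncrushed nerves, beside 12.2% and 12.8% of 34110 transcripts. Against contralateral nerves the counts were 5 and 14 of 29, beside 11.9% and 12.2% of 32027. In Dgcr8 iKO 1 of 25 was higher and 8 lower, beside 6.59% and 3.67% of 27069 transcripts. In Dicer iKO 0 of 23 was called in edgeR's test, beside 0.779% and 0.174% of 25808 called higher and lower. Of these 23, 6 had an unadjusted p under 0.05, and the share of all transcripts with such a p was not counted. Over genes it was 4736 of 13045 in the same comparison. Transcripts of a gene share reads and are not independent.

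After crush, both listed Nrcam transcripts and the pair Cadm1-202 and Cadm1-203 were higher than in uncrushed nerves, with Cadm1-203, which held 57.3% of the Cadm1 counts, at a log2 fold change of 1.34 (SE 0.17, edgeR adjusted p over all transcripts = 1.09e-03). Cntn1-202, a coding transcript, fell by 3.95 (SE 0.27), and the retained-intron transcript Cntn1-203 fell by 1.45 (SE 0.27). Cadm2-201 and Cadm3-201 fell by 3.16 (SE 0.18) and 2.12 (SE 0.12), and Cntnap2-202 fell by 2.24 (SE 0.44). Not every transcript had the sign of its gene: against contralateral nerves Cadm1-204 and Cadm1-205 had log2 fold changes of -0.93 and -1.03, neither called. In Dgcr8 iKO, Cntnap2-202 fell by 2.88 (SE 0.43), Cadm3-201 by 1.37 (SE 0.20) and Cadm3-202 by 1.10 (SE 0.18). Gldn and Cadm4 have 1 listed transcript each in these tables.

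Levels were compared between genes per length, as FPKM (fragments scaled to transcript length and library depth) summed over a gene's transcripts, as means ± SD over the nerves of a group. In uncrushed nerves the order was Cadm4 (206 ± 26.6), Cadm3 (112 ± 12.8), Nfasc (58.7 ± 5.92), Gldn (49.7 ± 5.90), Cadm1 (14.0 ± 3.58), Cadm2 (12.0 ± 1.46), Nrcam (8.66 ± 0.856) and Cntn1 (4.603 ± 0.552), where Nfasc and Gldn overlapped, as did Cadm1 and Cadm2. Cntnap2 and Cntn2 stood last, at 1.34 and 0.543 FPKM. In crushed nerves Gldn (63.0 ± 7.99), Cadm4 (61.0 ± 7.33) and Nrcam (58.8 ± 6.72) led with overlapping neighbours, followed by Cadm1 (38.8 ± 5.39), Nfasc (29.6 ± 6.55) and Cadm3 (26.9 ± 4.69), again with overlap, and by Cadm2 at 2.26 and Cntn1 at 1.0.

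In the mutant experiment Cadm4 led in every group, at 618 FPKM in Dgcr8 controls, 529 in Dgcr8 iKO, 594 in Dicer controls and 543 in Dicer iKO. Cadm3 followed in all 4, at 235, 105, 194 and 119 FPKM, where only in Dgcr8 iKO it overlapped the next gene, Gldn. The third place went from Nfasc in controls (85.03 and 50.5 FPKM in Dgcr8 and Dicer controls, overlapping Gldn in both) to Gldn in mutants (80.0 and 55.1 FPKM in Dgcr8 iKO and Dicer iKO, overlapping Cadm1 in the latter). FPKM of the rarest genes depend on how few reads fall to short transcripts: Cntnap2 was at 0.617 and 0.517 FPKM in Dgcr8 controls and Dgcr8 iKO although the fold from its counts was 6.94, and its place in the per-length order is not read further.

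The other genes of these junctions were taken as 4 fixed lists. Their counts are set against the 15.3% of all genes that were higher and the 21.1% that were lower after crush. Of 16 axoglial partners and scaffolds, 2 were higher and 4 lower in crushed against uncrushed nerves, and their log2 fold changes had a median of -0.60, compared with -0.03 over all genes. Lower were Mag (-3.45), the SC lectin at the inner myelin membrane and also a marker of myelinating SCs here, Epb41l2 (-1.5), an SC band 4.1 protein, and Cntnap1 (-1.29), which encodes Caspr, the axonal partner of Cntn1. Mpp1 (2.10) and Dlg1 (1.16), membrane scaffolds, were higher.

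Of 13 axonal channels and their partners none was higher and 6 were lower (median -0.99), led by Kcna2 (-2.40), a juxtaparanodal potassium channel, Adam22 (-2.02), which binds LGI proteins at the juxtaparanode, and Scn8a (-1.76), the nodal sodium channel. Of 21 microvillus and nodal matrix genes 5 were higher and 4 lower (median -0.28). Higher were Adamts4 (3.76), a protease that cleaves matrix proteoglycans, Ezr (2.18), a linker of microvillus membranes to actin, and Vcan (2.11), a proteoglycan of the nodal matrix, and lower were Utrn (-1.91), Sgcd (-1.70) and Lama2 (-1.52) of the dystroglycan complex and its laminin.

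Among 16 tested relatives of the members in the immunoglobulin and Caspr families (21 listed), Ntm (1.66) and Chl1 (1.43) were higher and 6 were lower, led by Cntn5 (-2.29), Opcml (-1.84) and Lsamp (-1.49), with a median of -0.63. Against contralateral nerves, where 14.6% of all genes were higher and 13.6% lower, the counts over the 4 lists were 1 higher and 4 lower of 16, 0 and 4 of 12, 5 and 5 of 21, and 2 and 4 of 16. None of the genes in the 4 lists was called between contralateral and uncrushed nerves, where none of all 17722 genes tested was.

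In Dgcr8 iKO, where 13.4% of all genes were higher and 6.99% lower, Mpp1 (1.35) was higher and none of 15 scaffold and partner genes lower (median -0.22). Of 12 channel genes 2 were higher, among them Adam23 (1.08), and 2 lower, among them Scn8a (-1.19), with a median of 0.13. Of 21 microvillus and matrix genes 5 were higher, led by Adamts4 (2.83), Bmp1 (1.62) and Nid1 (1.54), and none lower (median 0.61), and of 15 relatives Ntm (2.45), Nectin4 (1.53) and L1cam (1.10) were higher and Cntn5 (-2.71) and Cntnap5a (-2.58) lower (median 0.25). In Dicer iKO, where 7.37% of all genes were higher and 1.64% lower, the calls were Adam23 (1.04), Adamts4 (1.31), Nectin4 (1.97) and Ntm (1.60), all higher, of 15, 11, 21 and 14 genes tested in the 4 lists. L1cam is also in the list of repair SC markers, all 6 of which were called higher in Dgcr8 iKO, as were 5 of 6 in Dicer iKO.

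**Figure D5:**
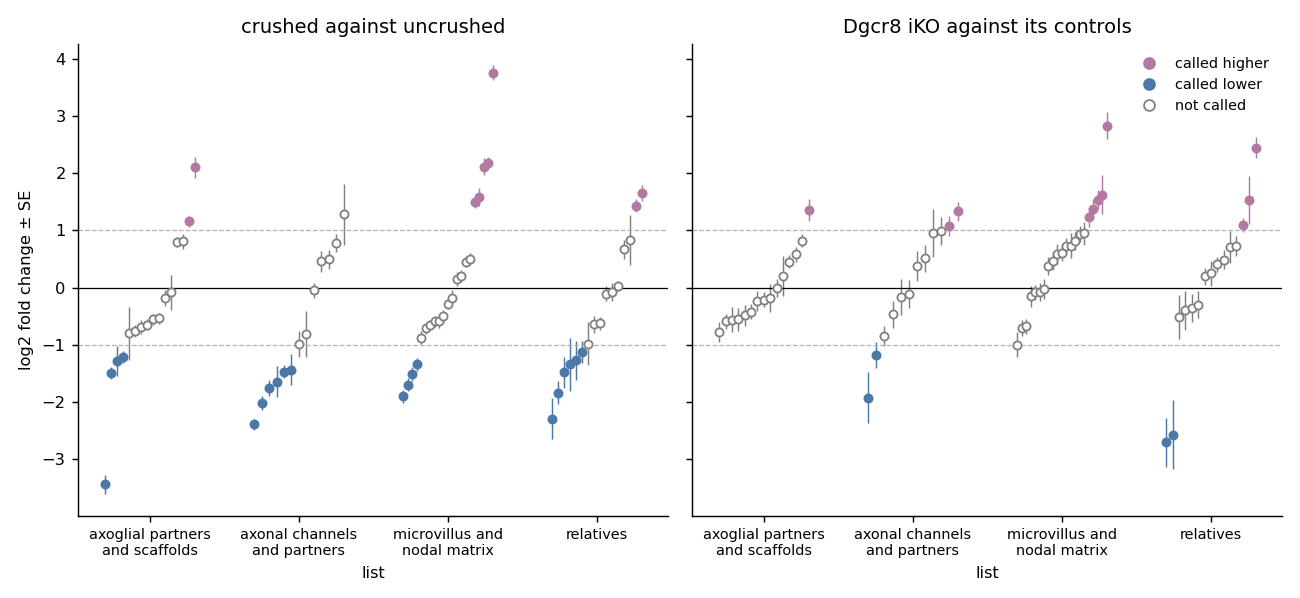
Log2 fold change ± SE (edgeR) of each tested gene of the 4 lists of further junction genes, sorted within a list, in crushed against uncrushed nerves (left) and in Dgcr8 iKO against controls (right), with dashed lines at 2-fold and coloured points called. The channel list has 6 of 13 genes called lower and none higher after crush, beside 21.1% and 15.3% of all genes. The microvillus and matrix list has 5 of 21 higher and none lower in Dgcr8 iKO, beside 13.4% and 6.99% of all genes.

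Which genes had profiles most like the members over the 11 libraries of the crush experiment is given as a description, since these libraries fall into crushed and intact nerves and any gene that differs between them will correlate. Among 14236 genes, by Pearson's r of log2(CPM + 1), Nrcam was most like Ezr (0.998) and Dync1li1 (0.998), Nfasc most like Scrib (0.995) and Scamp5 (0.995), Cntn1 most like Rsph9 (0.990) and Mobp (0.988), and Cntnap2 most like Fmo1 (0.983) and Pgr (0.983). Among the genes reported, Cadm2 was most like Lss (0.998), Cadm3 most like Mvb12b (0.999) and Srebf2 (0.998), Cadm4 most like Ecscr (0.999) and Itgb4 (0.998), and Cadm1 most like Tars (0.993) and Wdr43 (0.990). Lss and Srebf2 are genes of sterol synthesis, and Itgb4 is the laminin receptor subunit at the outer surface of myelinating SCs. Gldn, which was not called, had its closest profiles in Ubr4 (0.955) and Dag1 (0.938), the dystroglycan gene.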

How the data were processed

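Sciatic nerve RNA was measured by paired-end RNA sequencing in 23 libraries. Per the labels, crush libraries were made with a SMARTer Stranded pico-input kit and mutant libraries with a TruSeq stranded kit after Ribo Zero; the study's methods name TruSeq for all. The authors trimmed reads with Trimmomatic, aligned them with STAR to Ensembl GRCm38 (release not given in the sources used here) and deposited, per transcript, the expected counts of RSEM, TPM and FPKM. Further deposited columns of RSEM's posterior estimates were not used. For each gene the expected counts of its transcripts were added up and the sum was rounded. Gene symbols came from GENCODE M21 for GRCm38 and matched 42365 of 43068 and 22570 of 22880 genes.

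Each comparison was fitted on its own groups with edgeR 4.0.16 in R 4.3.3 (TMM, filterByExpr with a minimum count of 10, quasi-likelihood F test, two-sided). Genes were called at an adjusted p of at most 0.05 and a fold of at least 2, in the interaction by adjusted p alone. SE is the log2 fold change over the square root of F, and 95% intervals use the t distribution with the degrees of freedom of the fit. The scripts were tested on simulated data. CPM are counts over TMM-scaled library totals. Transcripts were fitted in the same way over all transcripts. Transcripts of Nfasc with at least 5% of its counts had their shares compared by exact permutation tests (scipy 1.17.1, Python 3.11.15). Levels between genes use the deposited FPKM in place of the planned TPM, since 1 transcript takes 61.5% to 71.8% of TPM in the crush libraries. FPKM and CPM are not comparable across the experiments.

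Replicate numbers come from the labels. The title and the description of uncrushed replicate 3 give different numbers, and the title was used. Antisense and overlapping genes were counted from stranded kits, though no source states the strand setting of the counting, and counting error of RSEM is not modelled. The members and the lists of partners and markers were chosen with earlier results of these data known. All members are named. Of a list, up to 3 called genes a direction are named by size, and likeness names the 2 genes with the highest r; values of a few genes under these rules are not reported here. Alternatives were RLE scaling, other filters, DESeq2 1.42.0, a replicate block, all groups in one fit and leaving out each library. The fit of protein-coding transcripts only, all transcript fits and FPKM were chosen after seeing the data.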

Additional observations from a re-analysis of the deposited data

How the results depend on the processing

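Of 802 values of single members under alternatives, 760 kept their direction and their side of the threshold, 18 lost and 3 gained a call and 21 changed sign, none of them called. For Nfasc transcripts 124 of 132 and for their shares 109 of 117 kept both. No gene was called between contralateral and uncrushed nerves, but 141 were without a filter, 20 by DESeq2, 6 with a replicate block, 1 with all groups in one fit, and 0 to 95 when leaving out 1 library (95 without uncrushed replicate 2 and 30 without uncrushed replicate 1). In Dicer iKO 961 genes were called higher and 214 lower, 640 in all with a replicate block and 572 to 1411 when leaving out 1 library. The number of members called there was 1, and 0 with RLE scaling, without a filter, with DESeq2, with the block, with all groups in one fit and with coding transcripts only, and 0 to 2 when leaving out 1 library. The interaction held for 2 genes, and for 1 with RLE scaling, 20 without a filter, 240 with DESeq2, 0 with the block and 0 to 401 when leaving out 1 library (401 without Dicer control replicate 3). Of member transcripts 9 were called in Dgcr8 iKO, 4 with the replicate block and 1 to 8 when leaving out 1 library. The causes were not tested.

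Sign changes among uncalled values were as follows. Gldn against contralateral nerves was 0.060 without a filter and -0.20 to 0.024 when leaving out 1 library. When leaving out 1 library in Dicer iKO, Gldn ranged from -0.0025 to 0.52 and Nrcam from -0.11 to 0.47. In the interaction Cadm1 was -0.012 and Cadm2 -0.025 with the block, and when leaving out 1 library Gldn ranged from -0.22 to 0.31, Cadm1 from -0.15 to 0.27, Cadm2 from -0.23 to 0.21 and Cadm4 from -0.25 to 0.024. Share differences in percentage points when leaving out 1 library ranged from -0.989 to 1.7 for Nfasc-201 and -0.675 to 1.58 for Nfasc-202 between crushed and contralateral nerves, from -3.10 to 0.212 for Nfasc-203 between contralateral and uncrushed nerves and from -2.31 to 3.08 for Nfasc-203 in Dicer iKO.

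Deviations of samples with the same replicate number correlated with r from -0.204 to 0.226 over the 5 comparisons, below 0.1 for at least 1 pair in each. By the methods, crushed and contralateral nerves come from the same mice. So few pairs (4 there) cannot show whether equal numbers mean the same mouse. The main fits did not pair samples, and the numbers entered only as a block in an alternative. Counts of genes higher and lower under the block were 2711 and 3821 for crushed and uncrushed nerves, 2435 and 2283 for crushed and contralateral nerves and 1738 and 926 for Dgcr8 iKO. The median log2 fold change of all genes in crushed against uncrushed nerves moved from -0.03 to -0.39 without a filter and to -0.20 with all groups in one fit. Depth limits Cntn2 and Cntnap2, with at most 22 and 68 counts in any library.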
